A study of Mus musculus with 18 samples.

Results

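The proteasome is the protease that destroys ubiquitin-tagged proteins, and its genes are described here in mouse erythroblasts under short stress of the endoplasmic reticulum (ER). A search of the count table for gene symbols that start with Psm, then a letter from a to g, then a digit, found 50 of 20683 genes. Of these, 48 encode proteasome subunits, regulators or assembly factors. The other 2 were matched by name and kept apart: Psmc3ip, which encodes a factor of homologous chromosome pairing, and Psme2b, a copy resembling the activator gene Psme2. Harringtonine positions were present for 38 of the 50 genes, 73 of 9025 positions in all.

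Erythroblasts, the nucleated precursors of red blood cells, came from fetal livers of Trp53 -/- mice on an FVB/n x C57BL/6 background, so the untreated cells lack p53 as well. The culture medium, StemPro, contained dexamethasone, stem cell factor and erythropoietin. One set was left untreated and the other was given tunicamycin (2.5 ug/ml, 1.5 h), which blocks N-glycosylation in the ER and leads to phosphorylation of the initiation factor eIF2. Each set was measured as total RNA, as footprints of ribosomes fixed with cycloheximide (100 ug/ml, 5 min), and as footprints of ribosomes held near start sites by harringtonine (2 ug/ml), with 3 libraries in each of the 6 groups. Whether the 3 libraries of a group came from different cultures or animals is not in the labels, and p-values therefore cover only the spread among these libraries, which may be technical.

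The core particle is a barrel of alpha rings (Psma genes), which gate the entrance, and beta rings (Psmb genes), which hold the proteolytic sites. The regulatory particle caps the barrel: its base has a ring of ATPases (Psmc genes) that unfold substrates, and its lid and remaining base (Psmd genes) bind ubiquitin and remove it. Dedicated chaperones assemble both particles. Proteasome genes are known to be raised together by the transcription factor encoded by Nfe2l1 when proteasome activity is short, and maturing erythroid cells clear many proteins through the ubiquitin-proteasome system.

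RNA totals were 12.9 to 49.0 M (mega) reads per library, footprints on annotated features 5.03 to 7.16 M, and reads at kept harringtonine positions 0.447 to 0.648 M. All 11 erythroid markers were above 5 CPM in RNA (reads per mega reads of the scaled library), with summed levels of 5202 to 5496 CPM untreated and 5201 to 5478 CPM under tunicamycin. Macrophage markers summed to at most 2.18 CPM, with C1qa, C1qb and Vcam1 at 0. Neutrophil and monocyte, lymphoid, hepatocyte and endothelial or stromal markers each stayed at or below 1.96 CPM in sum. One mast cell marker, Ms4a2 (139 CPM on average), and one megakaryocyte marker, Gp5 (100 CPM), were above 5 CPM. The summed mast cell level was 104 to 169 CPM untreated and 109 to 169 CPM under tunicamycin, and the summed megakaryocyte level was 112 to 119 and 95.4 to 105.4 CPM. Whether these moved any proteasome value was not tested. In bulk samples, fewer cells of a type and less RNA per cell cannot be told apart.

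Short stretches of DNA were read first, because proteasome genes are usually discussed through shared promoter elements. RefSeq promoter windows (250 bases before to 50 after a start, build GRCm38.p6) were given for 42 of the 50 genes. The core letters of the antioxidant response element, TGACNNNGC, which Nfe2l1 and its relative Nfe2l2 bind, were found on either strand in 6 of the 42 (14.3%), against 14.0% of all 27025 genes with a window. In 3 of the 6, the match lay on the gene's own strand and within 50 bases of the start, and these are shown with the matched letters in capitals.
Psmb5, chr14:54618023-54618052, minus strand: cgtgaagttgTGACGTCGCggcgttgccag
Psmb6, chr11:70525338-70525367, plus strand: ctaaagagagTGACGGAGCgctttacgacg
Psmd9, chr5:123228149-123228178, plus strand: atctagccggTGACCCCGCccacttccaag
The other three matches were in Psmc6, Psmd12 and Psme4, on the opposite strand. The CCAAT box was in 15 of the 42 windows (35.7%) against 41.1% of genes. The letters TGATGCAA, of the element bound by Atf4 and C/EBP factors in stressed cells, were in 1 window, that of Psmd13 (2.38% of members against 1.03% of genes). That stretch is shown because Psmd13 recurs below in the leader footprints. The match is read on the opposite strand, 247 bases before the start.
Psmd13, chr7:140882144-140882173, plus strand: gatTTGCATCAcacctagtcctcgccaaac
A match describes letters in these windows and says nothing of binding. The shares of the antioxidant element and the CCAAT box lie close to those of all genes, and the last rests on a single gene.

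RNA of the proteasome genes did not differ detectably between tunicamycin and untreated cells. Of 48 genes that passed the filter on low counts, 0 passed edgeR's quasi-likelihood test at an adjusted p under 0.05, where 0.15% of all 10643 genes passed. At an unadjusted p under 0.05 there were 2 of 48, Psmd1 and Psmc6, against 1324 of all 10643 genes. DESeq2 also called 0. Every log2 change lay between -0.22 (Psmb9) and 0.18 (Psmd1). The median was 0.02 over the members and -0.005 over all genes.

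Among the alpha ring genes, 7 of 8 were expressed; the testis form Psma8 had 0 RNA reads in every library. All 7 had log2 values above 0 in RNA, from 0.03 (Psma6) to 0.13 ± 0.07 (Psma3, SE), and none passed. Among the beta ring genes, 7 of 8 were expressed, and the thymus form Psmb11 had at most 3 reads in a library. Of the 7, 4 lay above 0 and 3 below, from -0.09 ± 0.06 (Psmb2) to 0.03 (Psmb3). Psmb4, a structural beta subunit, was at 508, 517 and 516 CPM untreated and 549, 516 and 439 CPM under tunicamycin. These values overlapped, with the lowest and the highest both under tunicamycin.

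The immunosubunits Psmb8, Psmb9 and Psmb10 replace the proteolytic beta subunits Psmb5, Psmb6 and Psmb7 in immune cells and under interferon. Psmb8 RNA was at 14.97, 14.4 and 15.2 CPM untreated and 12.7, 13.9 and 12.4 CPM under tunicamycin. All 3 tunicamycin values lay below the untreated ones, but the difference did not pass (log2 -0.19 ± 0.09, edgeR adjusted p = 0.435). Psmb9 RNA was at 7.94, 8.11 and 8.99 CPM untreated and 7.06, 7.65 and 6.64 CPM under tunicamycin, again without overlap and without passing (-0.22 ± 0.11, 0.455). Psmb10 RNA was at 65.7, 75.3 and 71.2 CPM untreated and 65.0, 67.8 and 62.3 CPM under tunicamycin, with overlap (-0.12 ± 0.07, 0.506). Their standard partners stayed close to their untreated levels: Psmb5 was at 91.9, 108 and 111 CPM untreated and 108, 108 and 97.1 CPM under tunicamycin. Psmb6 was at 182, 199 and 192 CPM untreated and 177, 208 and 185 CPM under tunicamycin, and Psmb7 at 291, 318 and 313 CPM untreated and 307, 336 and 295 CPM under tunicamycin. In footprints on coding sequence (CDS) the immunosubunits showed no common direction, with log2 values from -0.07 (Psmb8) to 0.06 (Psmb9) and overlapping libraries in all 3.

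Of the 6 ATPase genes, 5 lay above 0 in RNA. Psmc6 was at 257, 260 and 258 CPM untreated and 267, 294 and 290 CPM under tunicamycin. The groups did not overlap, and the difference did not pass (log2 0.14 ± 0.06, edgeR adjusted p = 0.393). Psmc2 also did not overlap (0.08 ± 0.06). Of the 11 lid and base genes, 9 lay above 0. Psmd1, a large scaffold of the base, was at 304, 282 and 309 CPM untreated and 357, 335 and 323 CPM under tunicamycin. All 3 treated values lay above the untreated ones, and the change did not pass (0.18 ± 0.06, 0.325; 0.0699 with the replicate number as a block). Psmd3, a lid scaffold, had the lowest value of that class (-0.10 ± 0.06, 0.52). Across the members, 5 genes were higher and 3 lower without overlap, that is 10.4% and 6.25% of 48, where 9.95% and 8.29% of all genes tested were.

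The remaining classes sat at or slightly below 0. Base chaperones ranged from -0.08 (Psmd9) to 0.02 (Psmd5), activators and the inhibitor Psmf1 from -0.08 (Psme1) to 0.08 (Psme4), and the core chaperones from -0.08 (Psmg1) to 0.02 (Psmg4). Psme3, a nuclear activator, was at 728 ± 26.6 CPM in untreated RNA (SD, n = 3). Of the 2 genes kept apart, Psmc3ip was lower in all 3 treated libraries (log2 -0.18 ± 0.10, edgeR adjusted p = 0.501). Psme2b had 86 to 631 RNA reads per untreated library but at most 3 CDS footprints in any library. Its RNA reads cannot be told apart from those of a near-identical copy.

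Summed by class, RNA levels differed by little in the large classes. The core (alpha and beta rings) summed to 3628, 3840 and 3864 CPM untreated and 3912, 4031 and 3598 CPM under tunicamycin. The ATPase ring summed to 1581, 1611 and 1628 CPM untreated and 1666, 1731 and 1637 CPM under tunicamycin, which did not overlap and differed by 0.06 on the log2 scale. The lid and base summed to 2851, 2904 and 2826 CPM untreated and 2881, 3014 and 2877 CPM under tunicamycin, with overlap. With 3 against 3 libraries, an exact permutation test cannot go below p = 0.1, so none was used for these sums. The ratio of core RNA to ATPase, lid and base RNA was 0.846 ± 0.0249 untreated and 0.836 ± 0.0340 under tunicamycin (SD, n = 3), with overlapping libraries.

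**Figure D1:**
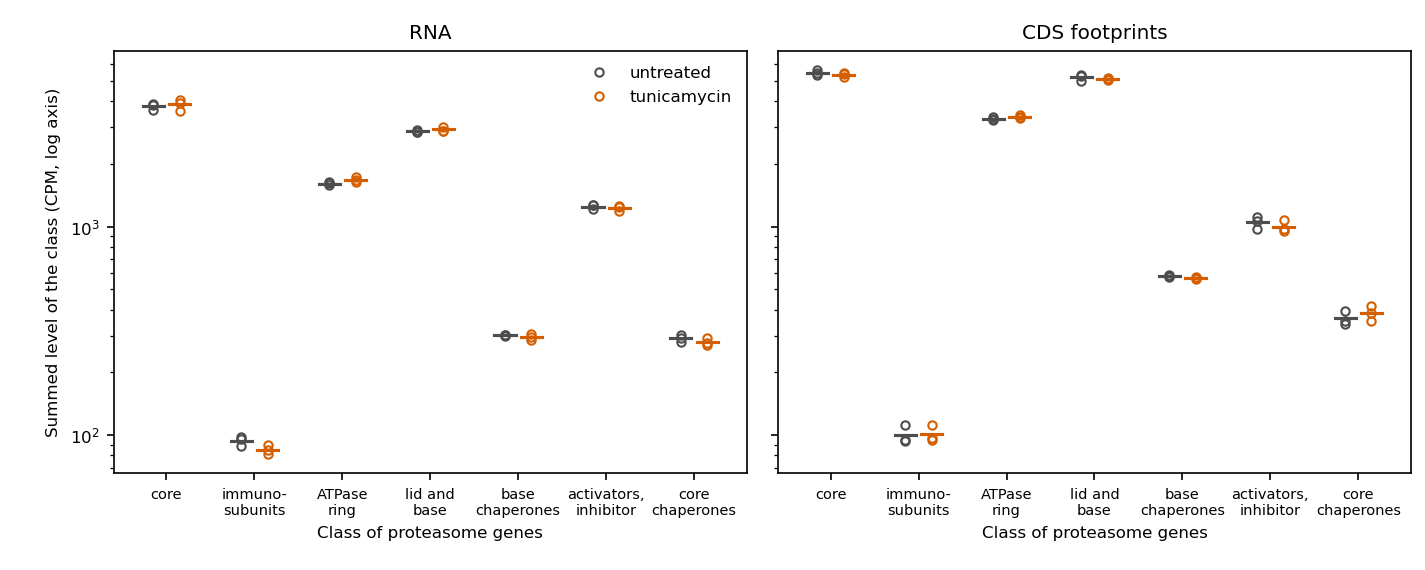
Summed RNA (left) and CDS footprint (right) levels of each class in CPM on a log axis, with 1 point per library (3 untreated, 3 tunicamycin) and a bar at the mean. Core RNA lies at 3777 CPM untreated and 3847 CPM under tunicamycin on average, and no class moves visibly on this scale.

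Footprints on coding sequence, which count ribosomes along each open reading frame, changed for 1 of the 47 genes tested without a replicate block. Psma3, an alpha ring subunit, rose, where 2.58% of all 9265 genes passed (1.78% higher and 0.799% lower). At an unadjusted p under 0.05 there were 6 of 47, against 1542 of all 9265 genes. The median was -0.01 over the members. Of the members, 7 were higher and 7 lower without overlap (14.9% each), where 11.3% and 10.3% of all genes were.

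Psma3 CDS footprints were at 46.1, 33.9 and 46.5 CPM untreated and 61.4, 88.8 and 99.5 CPM under tunicamycin. All treated values lay above the untreated ones, and the change passed (log2 0.98 ± 0.16, edgeR adjusted p = 0.00472). Its RNA was at 175, 193 and 200 CPM untreated and 212, 219 and 190 CPM under tunicamycin, with overlap. CDS footprints against RNA, the translational efficiency, rose as well (0.85 ± 0.19, 0.0417). In the reported fit it was the only call among 48 members, where 1.07% of 10154 genes passed (0.739% higher). Without any 1 of 10 of the 12 libraries that call was lost, with log2 values of 0.69 to 0.91 and an adjusted p of up to 0.139.

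The Psma3 value rests on an unusual count. Its leader (5' untranslated) line held 303, 218 and 304 reads in the untreated libraries, and its CDS line held 304, 218 and 306. Under tunicamycin the leader line held 299, 402 and 507 reads, and the CDS line 300, 402 and 507. The 2 lines therefore differ by at most 2 reads in every library. Leader and CDS counts within 2% of each other were found for 19 genes with at least 100 CDS reads, of which 5 passed as higher and 0 as lower in CDS footprints, with a median log2 change of 0.28. Psma3 also had the lowest ratio of CDS footprints to RNA of the members in untreated cells, 0.223 ± 0.0380 (SD, n = 3), against 2.92 ± 0.105 for the alpha subunit Psma6. No source used here tells how a read shared by leader and coding annotations was counted. With these 19 genes left out, 0 members passed in CDS footprints or in translational efficiency.

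**Figure D2:**
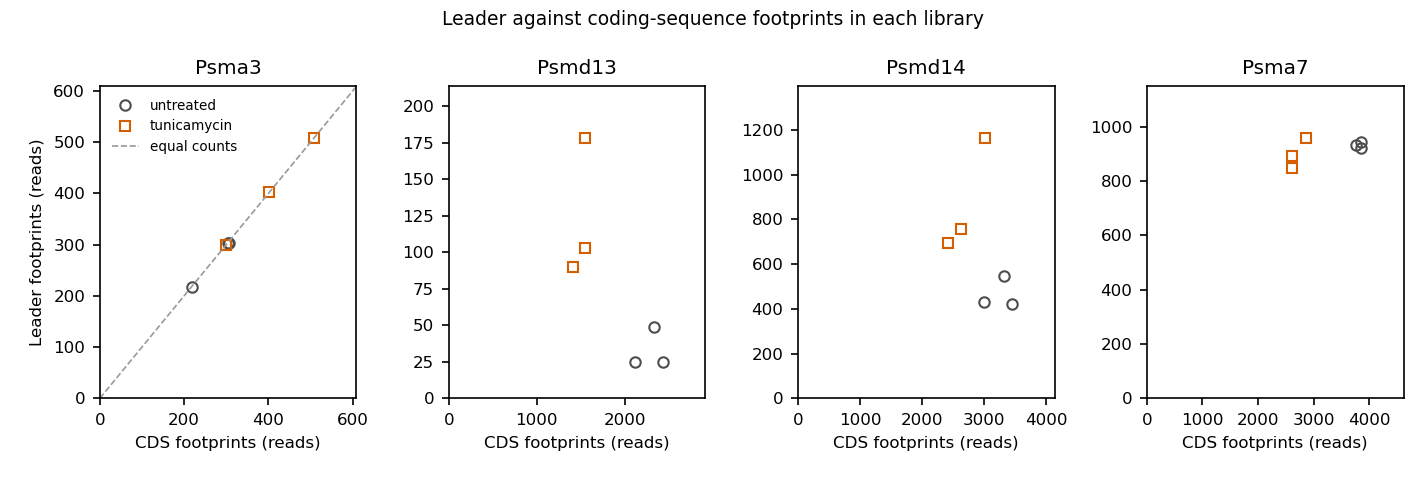
Raw leader footprints against raw CDS footprints of Psma3, Psmd13, Psmd14 and Psma7, with 1 point per library (circles untreated, squares tunicamycin). Psma3 points lie on the dashed line of equal counts, from 218 to 507 reads, while the other genes lie far from it.

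Other members with an unadjusted p under 0.05 in CDS footprints did not pass after adjustment without a replicate block. Psma4, another alpha subunit, was at 348, 391 and 292 CPM untreated and 268, 260 and 293 CPM under tunicamycin, with the highest treated value just above the lowest untreated one (log2 -0.33 ± 0.10, edgeR adjusted p = 0.113). Psmd10, a base chaperone also known as gankyrin, was at 99.6, 83.4 and 83.6 CPM untreated and 110, 113 and 111 CPM under tunicamycin, without overlap (0.32 ± 0.10, 0.0935). The core chaperone Psmg3 was at 55.05, 58.9 and 65.5 CPM untreated and 63.9, 76.2 and 82.3 CPM under tunicamycin, with overlap (0.31 ± 0.11, 0.169). Psmg4 (0.27 ± 0.11, 0.252) and the activator subunit Psme1 (-0.27 ± 0.10, 0.187) had changes of similar size without overlap. With the replicate number as a block, Psma4 passed as lower, and Psmd10 and Psmg3 as higher.

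In the rings, the lid and the base, CDS footprints lay on both sides of 0. In the beta ring 3 of 7 lay above 0, with Psmb4 and Psmb3 lowest at -0.13. In the ATPase ring 3 of 6 lay above 0, from -0.09 (Psmc5) to 0.13 ± 0.08 (Psmc6). Psmc6 footprints were at 768, 770 and 782 CPM untreated and 825, 825 and 886 CPM under tunicamycin, higher without overlap, as was its RNA. In the lid and base 5 of 11 lay above 0, from -0.18 ± 0.09 (Psmd13) to 0.16 ± 0.09 (Psmd14, the deubiquitinase of the lid). All 5 genes of the activators and the inhibitor lay below 0, and 3 of 4 core chaperones lay above 0.

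Summed CDS footprints of the core were 5352, 5599 and 5435 CPM untreated and 5365, 5428 and 5204 CPM under tunicamycin. Those of the ATPase ring were 3351, 3250 and 3270 CPM untreated and 3408, 3324 and 3362 CPM under tunicamycin. Both overlapped between treatments. The base chaperones summed to 576, 589 and 581 CPM untreated and 571, 559 and 567 CPM under tunicamycin, lower in all 3 treated libraries by 0.04 on the log2 scale. This sum joins Psmd5, with 338, 368 and 349 CPM untreated and 315, 300 and 324 CPM treated, to Psmd10, whose treated values lay higher.

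**Figure D3:**
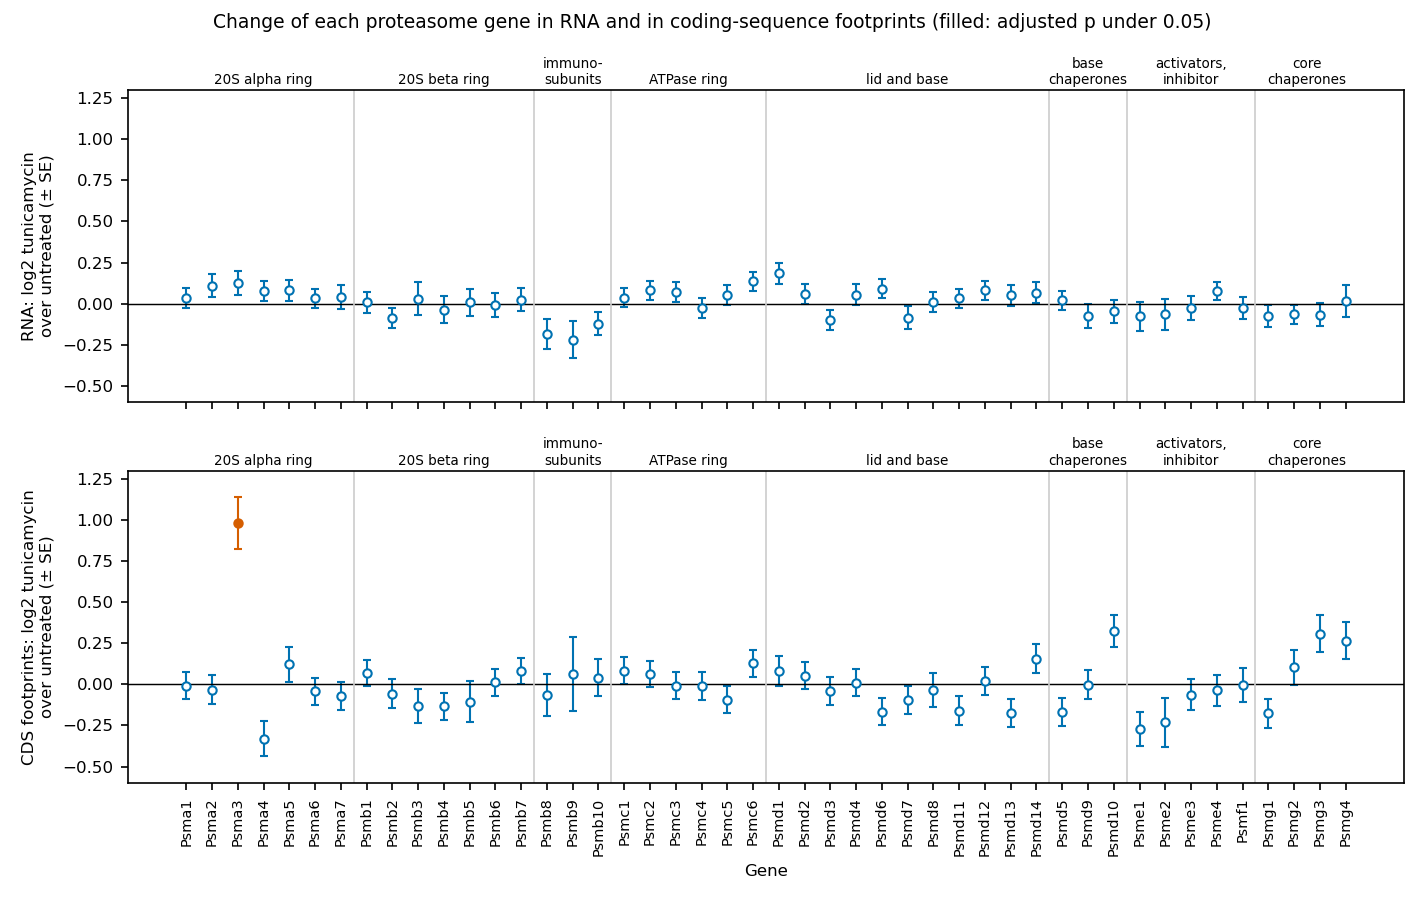
Log2 change under tunicamycin of each expressed proteasome gene in RNA (top) and CDS footprints (bottom), grouped by class, with points for the edgeR estimate and bars for its SE over 3 against 3 libraries. RNA points lie between -0.22 and 0.18, and the only filled point (adjusted p under 0.05) is Psma3 in CDS footprints at 0.98.

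No other member passed in the reported fit of translational efficiency. Psma4 (log2 -0.41 ± 0.13, edgeR adjusted p = 0.122), Psmd10 (0.36 ± 0.12, 0.139), Psmg3 (0.37 ± 0.13, 0.198) and Psmd6 (-0.27 ± 0.10, 0.2) were nearest to the threshold. With the replicate number as a block Psma4 also passed as lower, and by DESeq2 Psmd6 did. In the lid and base class 2 of 11 genes lay above 0, and all 3 immunosubunits did. In untreated cells, CDS footprints per RNA read on the CPM scale ranged from 0.223 (Psma3) to 3.36 ± 0.184 (Psmd6) among the expressed members. Psmd6, Psmd4 (3.11 ± 0.110), Psmc5 (3.01 ± 0.157) and Psmc6 (2.99 ± 0.0279) each stood above at least 98.1% of 8647 genes. Psma3, Psme2 (0.376), Psma5 (0.387) and Psmb5 (0.396) were lowest. These ratios depend on how much of a transcript is coding and on how reads were counted, and coding lengths were not used here.

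Ribosomes on leaders were more frequent relative to coding sequence under tunicamycin for many members. Of 46 genes tested, 23 rose in the ratio of leader to CDS footprints and 0 fell (50%), where 34.2% of all 9076 genes passed (34.1% higher and 0.0661% lower). The change was shared by the whole transcriptome: the median log2 change was 0.87 over all genes and 1.01 over the members. Leader reads made up 3.08%, 2.44% and 3.05% of leader and CDS footprints of all members summed in the untreated libraries, and 4.90%, 5.00% and 6.45% under tunicamycin. For all genes the shares were 5.16%, 4.07% and 5.47% untreated and 7.86%, 7.94% and 10.4% under tunicamycin. The leader share of the summed members was thus lower than that of all genes summed in every library, and both moved upward.

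By class, the rise passed in 8 of 11 lid and base genes, 4 of 7 alpha ring genes, 3 of 7 beta ring genes, 2 of 3 immunosubunits and 1 of 5 ATPase genes. It also passed in 3 of 5 activators and inhibitor, 1 of 3 base chaperones and 1 of 4 core chaperones. Psmc1 has no leader line in the table. Whether classes differ was not tested. Of the genes that did not pass, Psmb5 had at most 3 and Psmc4 at most 9 leader reads in a library. Without the third tunicamycin footprint library 10 members passed, and without the second untreated one 13 did. DESeq2 called 11.

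Psmd13, a lid subunit, stood out. Its leader held 49, 25 and 25 reads in the untreated libraries and 103, 90 and 178 under tunicamycin, while its CDS reads went from 2333, 2432 and 2121 to 1550, 1407 and 1554. The leader share was thus 2.06%, 1.02% and 1.17% untreated and 6.23%, 6.01% and 10.3% under tunicamycin, with a gap between the groups. The ratio rose by 2.49 ± 0.32 on the log2 scale (edgeR adjusted p = 1.47e-06), rank 303 of 9076 genes, and by 2.20 to 2.85 when each library was left out. The gene lies at chr7:140882394-140898642 (GRCm38.p6). Its RNA (0.05) and CDS footprints (-0.18 ± 0.09, 0.321) did not pass.

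Psmd14 had the next highest number of leader reads after Psma7 among the members with a separate leader count. Its leader share was 14.2%, 10.9% and 12.6% untreated and 22.3%, 22.3% and 27.8% under tunicamycin, without overlap (log2 1.15 ± 0.25, edgeR adjusted p = 0.000932). Psma6 was at 3.10%, 1.49% and 2.92% untreated and 5.89%, 5.23% and 7.96% under tunicamycin (1.43 ± 0.29, 0.000346). Psmd1 was at 3.14%, 2.08% and 3.75% untreated and 6.51%, 5.56% and 9.18% under tunicamycin (1.31 ± 0.28, 0.00069). In all 3 genes each treated library was above each untreated one, and the third tunicamycin library was the highest. Psme1 (2.52 ± 0.73) and Psmb3 (2.29 ± 0.78) had larger log2 values from at most 13 leader reads per library.

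Psma7 differed in degree. Its leader share was 19.7%, 19.8% and 19.3% untreated and 25.03%, 24.6% and 25.6% under tunicamycin, narrow within each group, yet the log2 change of the ratio was 0.46 ± 0.25 and did not pass (edgeR adjusted p = 0.146). Psma3 stayed between 49.8% and 50% in every library, as its equal counts require. Leader shares did not overlap, with tunicamycin higher, for 27 of the 46 members (58.7%), where 46.2% of all genes did so. Untreated shares were all higher for 0 of the 46, where this held for 0.408% of all genes.

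When leader and CDS counts were each scaled to their own totals, so that the shift common to all genes was removed, 2 members passed. The share of all genes passing on that scale is not given here. Psmd13 rose relative to other genes (log2 1.58, edgeR adjusted p = 4.84e-10), and Psma3 fell (-0.91, 3.70e-05), the gene whose leader and CDS lines are equal. The other 22 calls did not pass on this scale, and of these Psmb7, Psmb10, Psmc3 and Psme3 turned to values just below 0. Nearest to the threshold were Psma6 (log2 0.52, edgeR adjusted p = 0.0555) and Psme1 (1.68, 0.0789) above 0, and Psma7 (-0.46, 0.0629) below 0. Against the common shift, no proteasome gene other than Psmd13 thus passed as gaining more leader footprints than other genes.

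**Figure D4:**
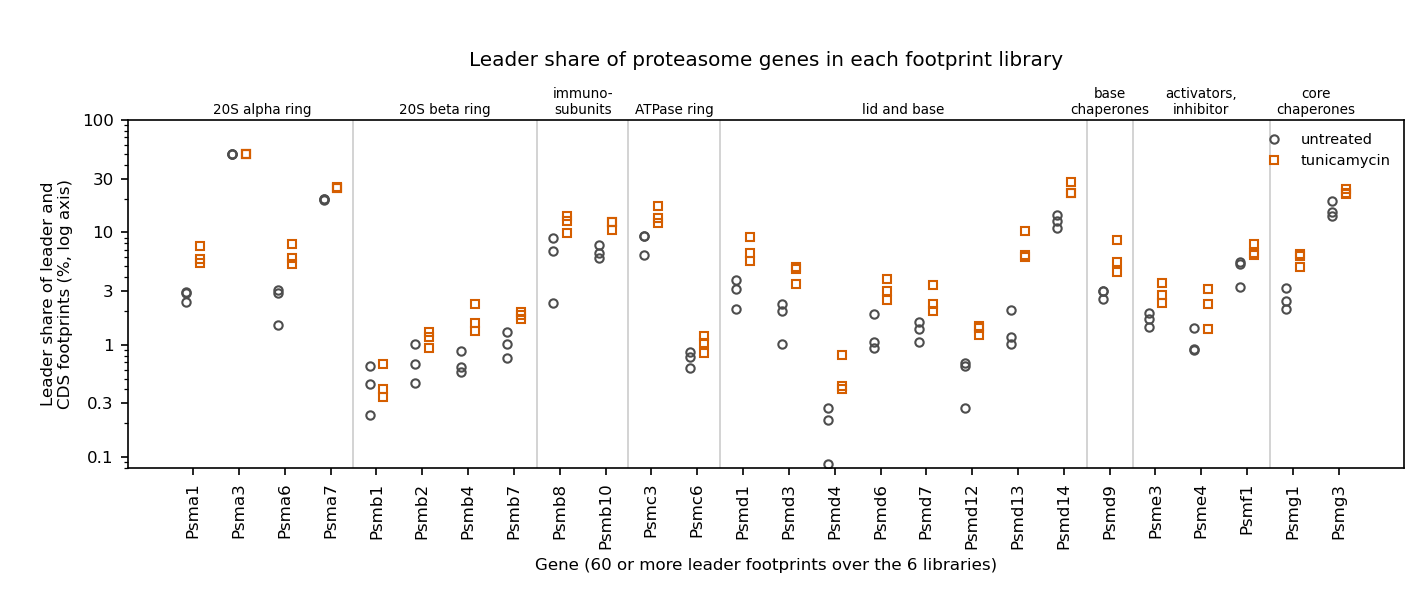
Leader share of leader and CDS footprints (percent, log axis) of the 26 members with at least 60 leader footprints over the 6 libraries, with 1 point per library. Shares run from below 1% to 50% (Psma3), and tunicamycin squares lie above untreated circles most widely for Psmd13, from 1.02% to 2.06% untreated and from 6.01% to 10.3% under tunicamycin.

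No change was detected for footprints in 3' untranslated regions. In their ratio to CDS footprints 0 of 47 members passed, where 0.361% of 8868 genes did (0.271% higher and 0.0902% lower). At an unadjusted p under 0.05 there were 2 of 47 (Psmg4 and Psma4), against 526 of all 8868 genes. DESeq2 called 0. The 3' share of the members' footprints was 1.31%, 1.53% and 1.33% untreated and 1.23%, 1.39% and 1.43% under tunicamycin.

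Harringtonine holds ribosomes that have just started, so its reads mark start sites. Positions within 10 bases were merged, which gave 62 sites in 38 members. One site was present in 18 of the 38 (47.4%), where 60.8% of 4613 genes had 1, while 16 had 2 and 4 had 3. The main site, the one with the most reads, lay within 250 bases of a RefSeq start for 23 of the 32 members with a start window, at a median distance of 131.5 bases. In genes with more than 1 site it held a median of 73.6% of the reads. Of the 24 other sites, 8 lay upstream and 16 downstream of it. The genes Psma2, Psmb5, Psmb9, Psmb10, Psmc3ip, Psmd7, Psmd10, Psme1, Psme2 and Psme2b had no kept site, nor had the silent Psma8 and Psmb11.

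Psma3 had the site with the most reads of all members, 491, 650 and 396 reads untreated and 1177, 438 and 585 under tunicamycin. This site, at chr12:70974755, lay 132 bases after the nearest RefSeq start. That start lies inside the annotated gene (chr12:70969283-70995877) and not at its beginning. Reads at the site summed to 1537 untreated and 2200 under tunicamycin, where the single site of Psma6 had 562 and 476. Psmd14 was second, with 399, 369 and 471 reads untreated and 483, 535 and 544 under tunicamycin at chr2:61711770, 76 bases into the gene. It had a site further in at chr2:61722711 with 844 reads in all and a minor one at chr2:61720480 with 180 reads. The single site of Psmd13, 66 bases in, had 19, 25 and 29 reads untreated and 30, 23 and 26 under tunicamycin.

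The other genes with 3 sites were Psma1, Psmc5 and Psmd9. In Psmd9 they lay 75, 104 and 128 bases into the gene, with 148, 1010 and 345 reads. Psmc5 had sites just before the annotated start (79 reads), 17 bases in (116 reads) and 5805 bases in (46 reads). Psma1 had its main site 106 bases in (708 reads) and others 1674 (320 reads) and 5031 bases in (32 reads). All distances of sites from a start were counted along the genome, with any introns included. Positions within the mRNAs were not determined.

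Where the first 50 bases after a start are in the sequence table, the letters at a site can be read. Over all genes 718 sites lay there, and at each distance only those with sequence that far were read. ATG stood 13 bases downstream of the deposited position in 73 of 438 sites (16.7%) and 12 bases downstream in 43 of 461 (9.33%), and at no other distance within 25 bases in more than 4.79%. Among the members, Psmb4 (chr3:94886921, its main site) and Psmd11 (chr11:80428652) had sites too near the end of the stretch to be read that far. For 4 other member sites at least 17 bases were left. They are shown from the deposited position onward with the bases 12 to 15 downstream in capitals.
Psma4, chr9:54950888-54950904, plus strand: tcaccgtcttccTCTGg
Psma7, chr2:180042415-180042431, minus strand: gctgacggtgagTGTGc
Psmc5, chr11:106256202-106256218, plus strand: tgggccagagcaGGTAa
Psmd12, chr11:107479537-107479553, plus strand: ccgaacctggggTACAg
None of the 4 has ATG at these places. For Psma4, Psma7 and Psmd12 the site shown is the lesser one of the gene (394 of its reads against 1011, 37 against 76, and 63 against 1219), while for Psmc5 it is the main one. The windows are stretches of the genome, so a read that crosses a splice junction would continue into other letters.

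No change of harringtonine reads was detected for the members. Summed per gene, 0 of 36 passed (0.0272% of 3681 genes did), with 2 at an unadjusted p under 0.05, against 133 of the 3681. DESeq2 called 0. Over single sites 0 of 47 passed, as did 0 of all 5123 sites. At an unadjusted p under 0.05 there was 1 member site, against 176 of all 5123, and DESeq2 called 0. Psma7 had 12, 6 and 10 reads untreated and 30, 26 and 29 under tunicamycin. These did not overlap, and the difference did not pass (log2 1.28 ± 0.37, edgeR adjusted p = 0.998). Its increase lay mostly at the site 3051 bases from the start, with 15 reads untreated and 61 under tunicamycin summed over 3 libraries. Psma6, at 441, 352 and 377 CPM untreated and 300, 241 and 255 CPM under tunicamycin, lay lower without overlap (-0.56 ± 0.23, 0.998). Psmb8, at 69.4, 99.6 and 113 CPM untreated and 124, 144 and 146 CPM under tunicamycin, lay higher (0.56 ± 0.27, 0.998), the reverse of its RNA values, which did not pass either.

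**Figure D5:**
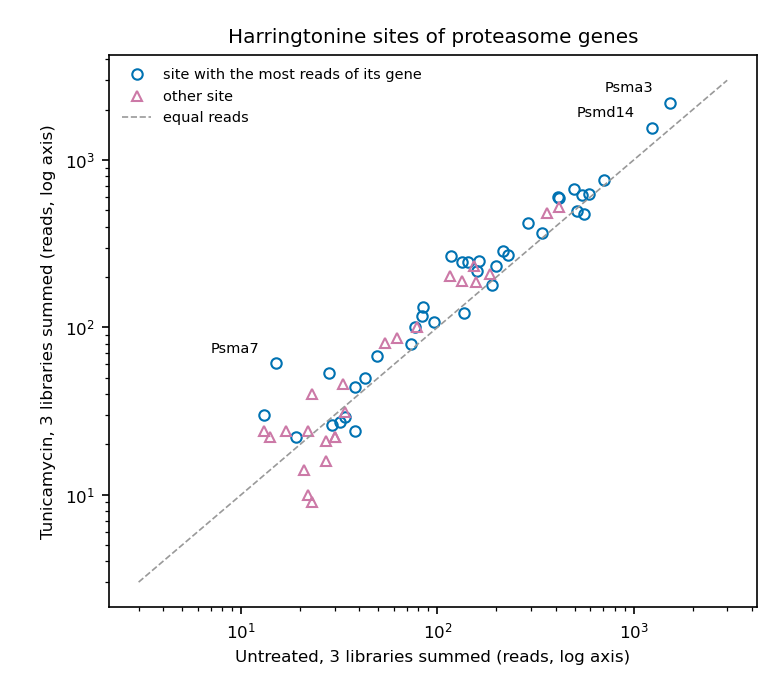
Reads at each of the 62 harringtonine sites of the members, summed over 3 untreated (horizontal) and 3 tunicamycin (vertical) libraries on log axes and not scaled for library totals, which were higher under tunicamycin. Most sites lie near the line of equal reads, Psma3 (1537 and 2200) and Psmd14 (1239 and 1562) are highest, and Psma7 (15 and 61) lies furthest above it.

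Genes that work with the proteasome but carry other symbols gave a similar picture. Of 17 listed factors, among them the ubiquitin receptor Adrm1, the deubiquitinase Usp14 and the assembly factor Pomp, 14 were in the table under the symbols searched. None passed in RNA, CDS footprints or translational efficiency, and 9 of 14 rose in the leader ratio, in which 34.1% of all genes rose, led by Txnl1 (log2 1.63 ± 0.29, edgeR adjusted p = 9.80e-05), Akirin2 (1.37 ± 0.28) and Pomp (1.39 ± 0.29). Rad23b, a shuttle that carries ubiquitinated proteins to the proteasome, was nearest to a call in CDS footprints (-0.30 ± 0.09, 0.0798), ahead of Shfm1 (0.30 ± 0.11, 0.193) and Ubqln1 (-0.22 ± 0.09, 0.254).

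Of 8 regulators, 0 passed in RNA, CDS footprints or translational efficiency and 4 rose in the leader ratio (34.1% of all genes did), among them the CCAAT-binding subunits Nfya (0.98 ± 0.27), Nfyb (1.23 ± 0.34) and Nfyc (1.27 ± 0.36). Nfe2l1 itself was at 70.6, 75.7 and 65.4 CPM untreated and 72.2, 74.7 and 78.5 CPM under tunicamycin in RNA. Its CDS footprints were at 56.3, 54.7 and 52.6 CPM untreated and 49.1, 50.8 and 38.7 CPM under tunicamycin, lower without overlap and not passing (-0.24 ± 0.12, edgeR adjusted p = 0.309).

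The polyubiquitin gene Ubb did not pass in RNA (log2 -0.29 ± 0.11, edgeR adjusted p = 0.341) or CDS footprints (-0.14 ± 0.13, 0.653), and its leader ratio rose (2.55 ± 1.03, 0.0197). Uba1, the main enzyme that activates ubiquitin, did not pass in CDS footprints (0.09 ± 0.08, 0.679), and its leader ratio rose (1.38 ± 0.33, 0.00157). Uba6, a related activating enzyme, did not pass in RNA (0.20 ± 0.09, 0.386). For the listed factors, regulators and ubiquitin genes, leader ratios were not set against the shift common to all genes. The median log2 change of that ratio over all genes was 0.87.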

How the data were processed

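Per the submitters' processing notes, STAR, HTSeq and edgeR were used with builds mm10 and GRCm38; no source used here names versions or counting options. The authors deposited raw counts of cycloheximide footprints on leader, CDS and 3' UTR lines, raw RNA counts per gene, and harringtonine counts at single positions. Counts were tested with edgeR 4.0.16 (R 4.3.3): TMM scaling, filterByExpr (minimum count 10, total 15), glmQLFit and glmQLFTest, Benjamini-Hochberg adjustment over all features, and an adjusted p under 0.05 as passing. TMM sets the typical gene near 0, so a change common to all genes is not seen in RNA, CDS footprints, efficiency or harringtonine reads. Efficiency was the interaction of assay and treatment over 12 libraries. The leader and 3' ratios were the interaction of feature and treatment, fitted within libraries, with 1 TMM factor for each. CPM uses TMM-scaled library sizes, SE is the Wald error of the fit, and intervals are 95%. The main edgeR fits were tried on simulated counts with changes larger than most seen here. Neither small changes nor a shift common to all genes was simulated. The DESeq2, replicate block and separately scaled fits were not tried in this way.

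The members and lists were chosen with earlier results of these data known. Values are given for members that passed, the members with the smallest p of each class, the standard and immunosubunit pairs, and the genes with most harringtonine sites; Psmd13's leader, Psmd14 and Psma7 were singled out after their values were seen. Same-numbered RNA libraries deviated together (correlations 0.416, 0.312 and 0.191, though untreated 2 with tunicamycin 3 also gave 0.190), so the label numbers may mark pairs. The reported RNA fits do not use them as pairs. With the replicate number as a block 0 members passed in RNA. Alternatives were DESeq2 1.42.0, RLE size factors, no filter, a replicate block, each library left out, other merge distances, and 2 chosen after seeing the data: leaving out genes with equal leader and CDS counts, and scaling leader and CDS separately. RefSeq sequences and gene positions are of GRCm38.p6. Results of some listed genes are not reported here.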

Additional observations from a re-analysis of the deposited data

How the results depend on the processing

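No call appeared among the members in RNA, the 3' ratio or harringtonine reads under any alternative run. In CDS footprints 2 members passed without the filter (Psma3 higher, Psma4 lower), 4 with the replicate block (Psma3 higher, Psmd10 and Psmg3 higher at edgeR adjusted p = 0.0173 and 0.0281, Psma4 lower at 0.0239), 1 to 2 when a library was left out, and 0 without the genes of equal leader and CDS counts. In efficiency 2 passed by DESeq2 (Psma3, and Psmd6 lower), 2 without the filter, 2 with the replicate block (Psma3, and Psma4 lower at 0.0413), 0 to 2 when a library was left out, and 0 without the equal genes. For the leader ratio the counts were 11 by DESeq2, 10 to 21 when a library was left out, 25 with the replicate block, and 2 with separate scaling. There 16 members turned from above to below 0: 4 that had passed, namely Psmb10 (-0.018), Psmb7 (-0.052), Psmc3 (-0.027) and Psme3 (-0.13), and 12 that had not, from -0.91 (Psma3) to -0.09 (Psmc2), with Psmg3 at -0.26. That scaling removes the shift common to all genes by construction. Shares of all genes passing under each alternative are not given here. Changes in these member counts are therefore not set against the calls over all genes. The summed ATPase footprints had a log2 change of 0.03, and 0.0014 without Psmc6, the gene with most footprints among them. Other causes were not tested. Same-numbered footprint libraries had correlations of 0.348, 0.0943 and 0.277, each above every unlike-numbered one (-0.293 to 0.0240). The reported footprint fits nevertheless do not use the numbers as pairs, while the counts with the replicate block above do. No paired analysis is reported for harringtonine. The names of its columns are, in the labels, those of RNA libraries, so the columns were matched to a treatment and not to a numbered library. Levels per coding length were not run, since coding lengths were not used here. Leader counts under 20 reads per library limit the ratio of genes such as Psme1 and Psmb3.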
